A study of Mus musculus with 26 samples.

Results

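The mouse miRNAs named miR-297, miR-466, miR-467 and miR-669 were followed in small RNA sequencing of the CA1 field of the hippocampus, as the rodent-specific miRNAs that are encoded in an intron of the gene Sfmbt2. Members were chosen by name and by summed counts: all table entries with one of these 4 names followed by a letter or a dash and with at least 260 raw counts summed over the 26 libraries. Of 1915 table entries, 80 carried such a name and 26 passed the threshold. Entries with the same count in every library were taken as one measurement, so the 26 entries gave 16 distinct measurements, of which 8 joined 18 entries. A further 44 entries of these names had reads but stayed below the threshold, and 10 had none. The entries just inside the threshold were miR-466d-3p with 462 counts and miR-467d-5p with 305, and those just outside were miR-669b-5p with 254 and miR-669h-5p with 244.

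The libraries fall into 3 groups. The wild type vehicle group (n = 9) consisted of littermate controls that drank vehicle, the transgenic vehicle group (n = 7) of CamkdeltaC transgenic mice that drank vehicle, and the transgenic Vorinostat group (n = 10) of CamkdeltaC mice that received Vorinostat, also called SAHA, in the drinking water. All mice were of both sexes, were 2 months old at the start, were treated for 4 weeks and were 3 months old at dissection. CamkdeltaC names a splice form of a calcium/calmodulin-dependent protein kinase and the series title ties the model to heart failure and memory. Which promoter drives the transgene is not stated in the labels. Vorinostat is an inhibitor of histone deacetylases. No group of wild type mice on Vorinostat was among the libraries, so each Vorinostat comparison is within the transgene or across both genotype and agent.

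Sfmbt2 encodes a Polycomb-group protein and is an imprinted gene best known from the placenta. One of its introns expanded in mice and rats into a long array of repeated miRNA hairpins. Each hairpin is cut into a duplex whose 5p and 3p arms can both be loaded into an Argonaute protein, and bases 2 to 8 of the loaded arm, the seed, pair with target messages. The array is known mainly from placenta and embryonic stem cells, and these miRNAs have repetitive sequences rich in UG on one arm and CA on the other.

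No member sequence was available, so sequences are shown only for entries of the same names encoded elsewhere in the genome. RefSeq (GRCm38.p6) gave a mature sequence by name for 8 of the 80 matching entries and for 0 of the 26 members. All 8 lie outside Sfmbt2 and each had at most 101 reads. The 5 shown here hold both kinds of repeat. Capitals mark the seed.
miR-466i-3p (chr13:17747552-17747573, plus strand, opposite to Cdk13): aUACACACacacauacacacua
miR-466k (chr3:85467396-85467418, plus strand): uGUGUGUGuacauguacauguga
miR-467f (chr11:69635419-69635439, minus strand, opposite to Fxr2): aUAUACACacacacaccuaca
miR-467h (chr9:115381898-115381919, plus strand, intergenic): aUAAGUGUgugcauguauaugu
miR-669n (chr3:115979905-115979924, plus strand, opposite to Slc30a7): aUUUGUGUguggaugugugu
A run of at least 8 bases of alternating U and G or C and A was found in 6 of the 8 sequences. It was found in 11 of the 1623 table entries with a sequence, which include these 8 but no member. miR-466i-3p is the opposite arm of a member, miR-466i-5p, and had 101 reads against 2362 for that member. The members themselves were miR-297a-3p, miR-297b-3p, miR-297c-3p, miR-466a-3p, miR-466b-3p, miR-466b-5p, miR-466c-3p, miR-466c-5p, miR-466d-3p, miR-466e-3p, miR-466f-3p, miR-466i-5p, miR-466o-5p, miR-466p-3p, miR-467a-3p, miR-467a-5p, miR-467b-5p, miR-467c-5p, miR-467d-3p, miR-467d-5p, miR-467e-5p, miR-669a-3p, miR-669a-5p, miR-669c-5p, miR-669o-3p and miR-669p-5p.

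The annotation of the same build (GENCODE M21, GRCm38) placed 119 miRNA genes inside Sfmbt2 (chr2:10370510-10595253, plus strand). All 119 lay on the strand of Sfmbt2 and in a single intron of 62472 bp (chr2:10461473-10523944), which is intron 10 or 11 depending on the protein-coding transcript. They spanned 53.0 kb. Of these genes, 71 carried a name of the 4 groups and 48 carried only a predicted gene name. Along the intron the named hairpins followed each other in a repeated order. A miR-467 hairpin, a miR-466 hairpin and a miR-669 hairpin stood next to each other in that order 11 times, with 0.502 to 0.518 kb between the starts of the first and the last. The 11 Mir467a and Mir467b hairpins were 2.45 kb apart at the median (range 2.41 to 4.88 kb).

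The label held for most but not all members. Of the 81 annotated hairpins of these names, 10 lay outside Sfmbt2. The single hairpin named for miR-466i-5p (Mir466i, chr13:17747473-17747593) lies opposite to Cdk13 on chromosome 13, so miR-466i-5p is a member by its name only. miR-297a/b/c-3p had 5 of 6 hairpins and miR-466f-3p 3 of 4 hairpins inside Sfmbt2. For miR-466a-3p no hairpin gene of exactly that name was annotated. The other measurements had every hairpin of their names in the intron. Reads of a mature miRNA that several hairpins encode cannot be assigned to one of them, so levels below belong to the name and not to a locus.

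**Figure D1:**
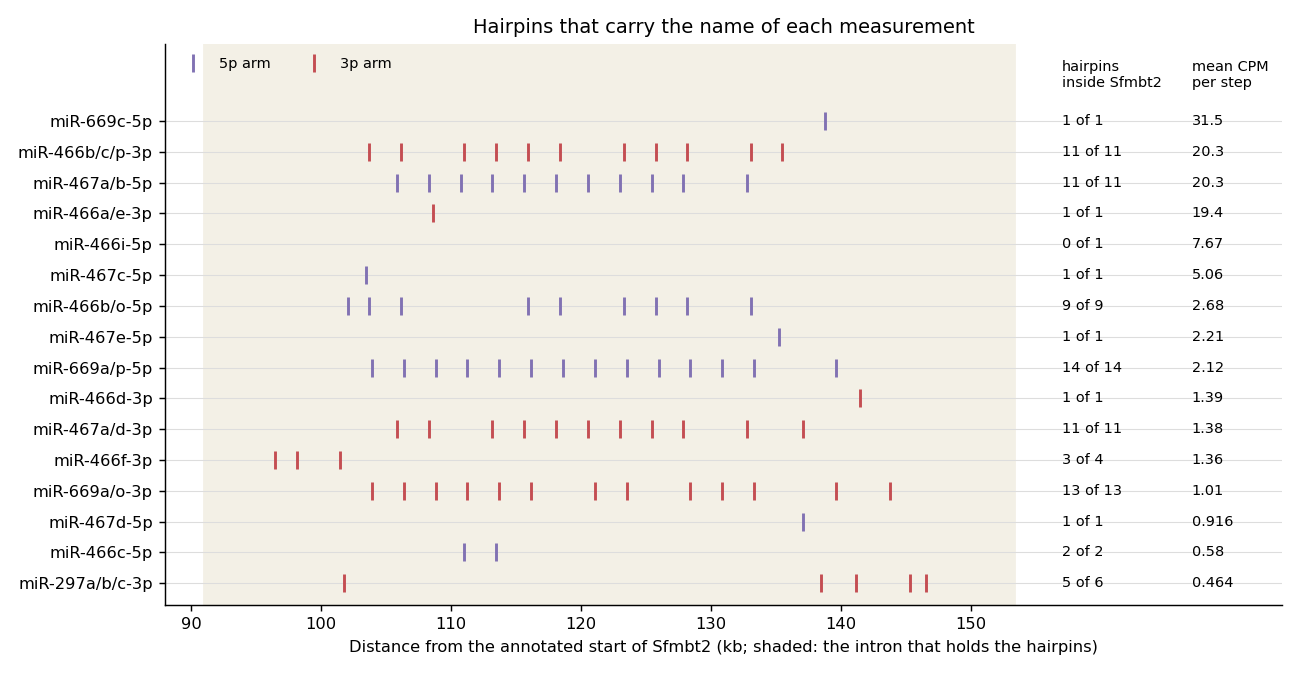
Positions of the annotated hairpins that carry the name of each measurement, in kb from the annotated start of Sfmbt2, with 1 tick per hairpin (violet for measurements of the 5p arm, red for the 3p arm) and the intron shaded. Columns on the right give the number of hairpins inside Sfmbt2 and the mean level over 26 libraries in CPM divided by the count step, and miR-466i-5p has no tick because its only hairpin lies on another chromosome.

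Library depth ranged from 585188 to 24767468 miRNA counts. Wild type vehicle replicate 1 (585188 counts) and Vorinostat replicate 8 (3892718) stood apart, and the other 24 libraries held at least 6014711. The headers of the count table name a sequencing lane, L001 or L002, for each library. L001 held 6 wild type vehicle, 3 transgenic vehicle and 4 Vorinostat libraries, and L002 held 3, 4 and 6. Neuronal miR-124-3p, miR-128-3p, miR-9-5p and miR-138-5p were read in all 26 libraries. The 18 table entries of miR-290 to miR-295, a cluster of embryonic stem cells, held 2 reads in all. Levels are given as CPM, in which the counts of each library are scaled to a common total and adjusted by the trimmed mean of M-values (TMM), and errors are SD over libraries. In bulk tissue, fewer cells of a type and less RNA per cell cannot be told apart. Whether every library came from its own animal is not said in the labels, and the p-values then cover only the spread among these libraries, which may be technical.

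The deposited counts of 6 of the 16 measurements came only in whole multiples of a number above 1, here called the count step. Every count of miR-467a/b-5p and of miR-467a/d-3p was a multiple of 11, every count of miR-669a/p-5p a multiple of 14, and every count of miR-669a/o-3p a multiple of 12. The step was 4 for miR-297a/b/c-3p and 3 for miR-466c-5p. For 3 of the 6, miR-467a/b-5p, miR-467a/d-3p and miR-669a/p-5p, the step equalled the number of annotated hairpins of the names. Of all 605 miRNAs tested, 23 entries had a step above 1, of which 12 were entries of this family and the other 11 had a step of 2. A step does not alter the ratio between libraries within a measurement, but deposited counts overstate the number of separate observations and cannot be compared between measurements. Levels are therefore also given as CPM divided by the step, called step-corrected, wherever measurements are compared or added. A step of 1 does not show that each read was counted once, and 3 of the 10 measurements without a step are named for several hairpins. After division, 2 of the 16 measurements, miR-297a/b/c-3p (154) and miR-466c-5p (182), held fewer than the 260 counts of the threshold.

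The family was a small part of the CA1 miRNA pool. Its step-corrected levels summed to 118 ± 38.4 CPM (n = 26), which was 0.0120 ± 0.00455% of all counts after the same division. This sum holds both miR-466b/c/p-3p (16.3% of it on average) and the nearly duplicate miR-466a/e-3p (15.6%), so reads common to them count in each. As deposited, the sum was 376 ± 96.5 CPM, and miR-467a/b-5p with its step of 11 made up 59.7% of it on average, against 17.99% of the step-corrected sum. By name and step-corrected, miR-466 gave 53.4 ± 28.8 CPM, of which 34.0 ± 17.1 without the nearly duplicate miR-466a/e-3p, miR-669 gave 34.6 ± 19.4, miR-467 gave 29.9 ± 8.05 and miR-297 gave 0.464 ± 0.477. The spreads of miR-466, miR-669 and miR-467 overlap. The order differs from that of the deposited counts, in which miR-467 led with 247 ± 63.6 CPM. Division acts only on measurements with a step. miR-466b/c/p-3p, also named for 11 hairpins, has none and stays undivided, so the order of the names remains uncertain. Even the highest member ranked only 248th of the 605 miRNAs that passed the filter on low counts. All 16 measurements passed that filter as deposited. One count was worth 0.0373 to 2.08 CPM depending on the library.

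**Figure D2:**
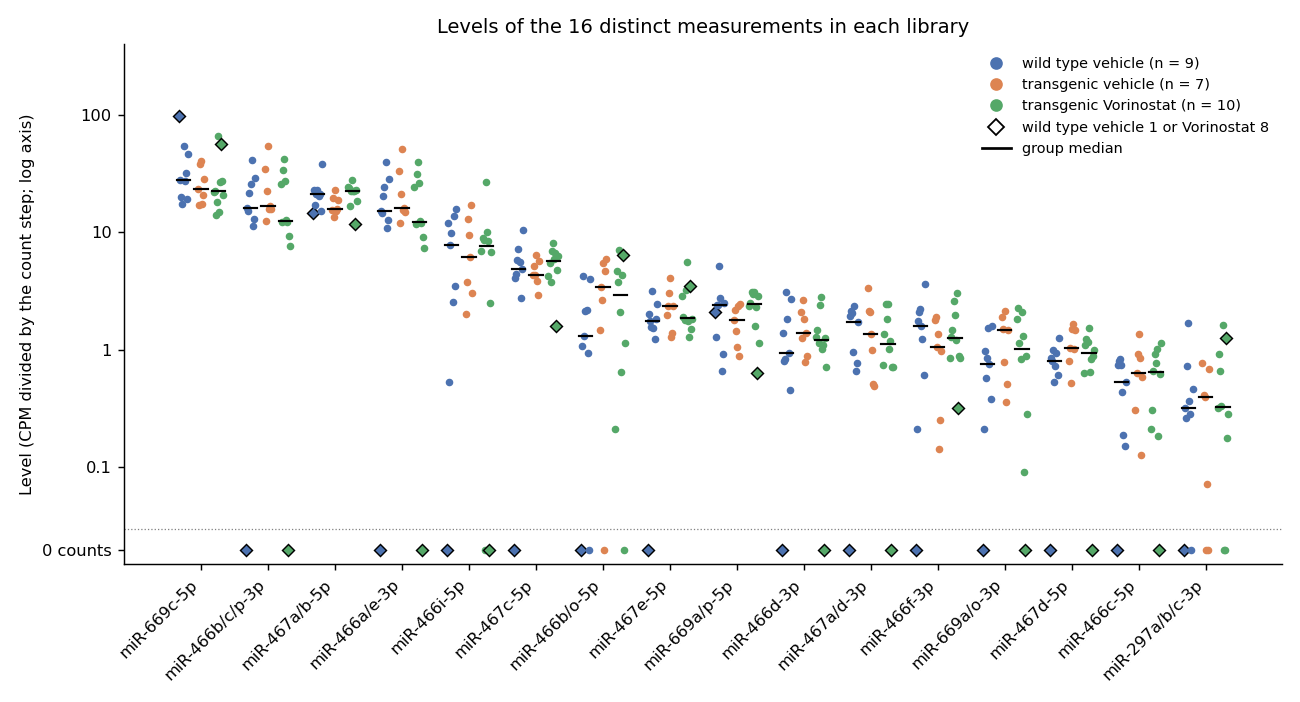
Level of each of the 16 measurements in each of the 26 libraries, in TMM-scaled CPM divided by the count step, on a log axis, with libraries without a read placed at "0 counts". Colours mark the 3 groups, bars the group medians and diamonds the libraries wild type vehicle 1 and Vorinostat 8. The groups overlap for every measurement.

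Among the 5p arms, miR-669c-5p is named for 1 hairpin (chr2:10509296-10509404) and had a step-corrected mean of 31.5 ± 19.3 CPM, or 27.7 ± 13.1 CPM without the 2 libraries that stood apart. It was the highest member on this scale in both cases. Across groups it ranged from 17.5 over a median of 27.7 to 97.8 CPM in wild type vehicle. It ranged from 17.1 over 23.2 to 40.7 CPM in transgenic vehicle and from 14 over 22.3 to 66.5 CPM in Vorinostat. The highest library of all was wild type vehicle replicate 1, in which most other members had no read. The opposite arm of this hairpin, miR-669c-3p, had 6 reads in all libraries against 8351 for miR-669c-5p.

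miR-467a/b-5p, named for 11 hairpins, averaged 20.3 ± 5.36 CPM step-corrected (223 ± 59.0 CPM as deposited). This was within the spread of miR-669c-5p, miR-466b/c/p-3p (20.3 ± 12.9 CPM) and miR-466a/e-3p (19.4 ± 12.3 CPM). In deposited CPM its level in wild type vehicle libraries was lowest at 160, had a median of 234 and was highest at 420. In transgenic vehicle the corresponding values were 148, 173 and 252 CPM, and in Vorinostat 129, 247 and 304 CPM. The 420 CPM of wild type vehicle replicate 9 lay above every other library, and the lowest value of all came from Vorinostat replicate 8. The 3 ranges overlapped widely. Its log2 level had the smallest spread of all members (SD 0.36).

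miR-669a/p-5p averaged 2.12 ± 0.998 CPM step-corrected (29.6 ± 14 CPM as deposited), with its step of 14. In deposited CPM its lowest, median and highest values were 9.25, 33.5 and 72.9 CPM in wild type vehicle, 12.5, 25.3 and 34.3 CPM in transgenic vehicle, and 8.90, 34.1 and 43.8 CPM in Vorinostat. Replicate 5 of the wild type vehicle group alone exceeded 44 CPM. miR-466i-5p, encoded outside Sfmbt2, averaged 7.67 ± 6.32 CPM and had the largest spread of the family over all 26 libraries (SD of log2 CPM 2.64), with 0 reads in 3 libraries and 27 CPM in Vorinostat replicate 5. Without the 2 libraries that stood apart its SD was 1.92, below those of miR-297a/b/c-3p (2.43) and miR-466b/o-5p (2.26). miR-467c-5p averaged 5.06 ± 2.08 CPM and miR-466b/o-5p 2.68 ± 2.18 CPM. miR-467e-5p (2.21 CPM), miR-466c-5p (0.580 CPM step-corrected) and miR-467d-5p (0.916 CPM) were the other 5p members.

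Among the 3p arms, miR-466b/c/p-3p and miR-466a/e-3p were nearly the same measurement. The count of miR-466a/e-3p was at or below that of miR-466b/c/p-3p in 26 of 26 libraries and came to between 93.2% and 98.5% of it in the 24 libraries with reads. Their levels are therefore not 2 independent observations. miR-466b/c/p-3p ran from 0 over 16.2 to 41.2 CPM in wild type vehicle, from 12.5 over 16.8 to 54.0 CPM in transgenic vehicle and from 0 over 12.5 to 41.8 CPM in Vorinostat. Step-corrected, miR-467a/d-3p averaged 1.38 ± 0.846 CPM and miR-669a/o-3p 1.01 ± 0.696 CPM. In deposited CPM the group medians of miR-467a/d-3p were 18.9 CPM in wild type vehicle, 15 in transgenic vehicle and 12.2 in Vorinostat, and those of miR-669a/o-3p were 9.06, 17.6 and 12.3 CPM. miR-466d-3p (1.39 CPM) and miR-466f-3p (1.36 CPM) were at a like level and miR-297a/b/c-3p (0.464 CPM step-corrected) was lowest.

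The arm that dominated differed between hairpins of different names. For miR-467a the 3p arm made up 6.37 ± 4.25% of the step-corrected counts of both arms (n = 26), and for miR-669a 30.3 ± 16.9%. For miR-466b it was the major arm, with 85.4 ± 19.8% over the libraries other than wild type vehicle replicate 1, which had no read of either arm. Without both libraries that stood apart the 3p arm of miR-466b made up 89.0 ± 8.86% (n = 24). The 2 arms of these names do not come from identical hairpin sets, since each measurement also holds other names (miR-467a/b-5p and miR-467a/d-3p share 10 of their 11 hairpins). Among names with a single hairpin in the intron, miR-467c had 1666 reads of the 5p arm and 12 of the 3p arm, miR-467e had 684 and 55, and miR-466d had 48 and 462. miR-467d had 305 counts of its 5p arm, while its 3p arm cannot be told apart from that of miR-467a. Thus miR-467a, miR-467c, miR-467e and miR-669c were read mainly from the 5p arm and miR-466b and miR-466d from the 3p arm. For miR-669a the 5p arm led on average only. Its step-corrected 3p share ran from 3.85% to 66.7% over the 24 libraries without the 2 that stood apart.

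The genotype comparison asked whether CamkdeltaC transgenic CA1 differed from wild type CA1 under vehicle. No miRNA passed an adjusted p of 0.05 in edgeR's quasi-likelihood test, neither among the members (0 of 16) nor among all 605 tested (0%). At an unadjusted p under 0.05 there were 13 of 605 miRNAs (2.15%) and 0 of 16 members. DESeq2 and limma voom also passed 0 of 605, with 18 and 7 at an unadjusted p under 0.05. The log2 difference was above 0 for 9 of 16 members, against 54.4% of all miRNAs, and its median was 0.09 over the members and 0.03 over all. With all counts divided by their step, 0 of 600 miRNAs passed in each of the 3 comparisons, and miR-297a/b/c-3p fell below the filter.

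The members with the smallest p-values went both ways in that comparison. miR-467a/b-5p averaged 237 ± 76.8 CPM in wild type vehicle (n = 9) and 191 ± 35.9 CPM in transgenic vehicle (n = 7). This gave a log2 difference of -0.32 (SE 0.19, edgeR adjusted p = 0.980), and 1 of 7 transgenic libraries lay above the wild type mean. Without wild type vehicle replicate 9 it was -0.15. miR-669c-5p averaged 38.1 ± 25.7 against 26.5 ± 9.59 CPM, a log2 difference of -0.47 (SE 0.36), which was -0.25 without wild type vehicle replicate 1. On the higher side, miR-466b/o-5p averaged 1.76 ± 1.54 against 3.38 ± 2.18 CPM (log2 difference 0.77, SE 0.73). miR-467d-5p averaged 0.747 ± 0.353 against 1.15 ± 0.412 CPM (0.45, SE 0.32), and 6 of 7 transgenic libraries lay above the wild type mean. The edgeR adjusted p was 0.980 for each of these members as well.

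The Vorinostat comparison asked whether 4 weeks of the inhibitor altered these miRNAs in transgenic CA1. Again 0 of 16 members and 0 of 605 miRNAs (0%) passed edgeR's adjusted threshold. An unadjusted p under 0.05 was reached by 21 of 605 (3.47%) and by 0 members. With DESeq2 and limma voom, 0 passed, and 26 and 16 of 605 had an unadjusted p under 0.05. Members higher with Vorinostat numbered 8 of 16, against 49.3% of all miRNAs, with median log2 differences of -0.05 and -0.01. These fits did not pair samples. With the 7 replicate numbers that both transgenic groups share as a block in edgeR, 5 of 567 miRNAs passed and 147 had an unadjusted p under 0.05, but 0 of 16 members did either.

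The members with the smallest p-values were 5p arms on the higher side and 3p arms on the lower side, all without passing the test. miR-467a/b-5p was 191 ± 35.9 CPM in vehicle (n = 7) and 234 ± 49.1 CPM in Vorinostat (n = 10), a log2 difference of 0.30 (SE 0.18, edgeR adjusted p = 0.836), with 8 of 10 treated libraries above the vehicle mean. miR-669a/p-5p was 24.4 ± 8.74 and 31.7 ± 12.2 CPM (0.38, SE 0.34). Conversely, miR-466b/c/p-3p was 24.6 ± 14.9 and 18.3 ± 13.2 CPM (-0.41, SE 0.50), and the nearly identical miR-466a/e-3p was 23.5 ± 14.2 and 17.4 ± 12.4 CPM (-0.42, SE 0.50). Leaving out 1 library moved the first from -0.69 (without Vorinostat replicate 4) to -0.16 (without transgenic vehicle replicate 6), and the second from -0.69 to -0.16 likewise. Without transgenic vehicle replicate 9, miR-669a/p-5p was at 0.21. Within lane L001 both 3p measurements turned to the higher side (0.24 and 0.22). The edgeR adjusted p was 0.836 for these 3 as well. The members did not split by arm. The 3p measurements miR-466f-3p (0.43, SE 0.47) and miR-297a/b/c-3p (0.64, SE 0.78) were also on the higher side. The 5p measurement miR-467d-5p (-0.26, SE 0.31) was on the lower side.

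The comparison of transgenic Vorinostat with wild type vehicle differs in both genotype and agent. It passed 0 of 16 members and 0 of 605 miRNAs (0%) in edgeR, with 19 of 605 (3.14%) and 0 members at an unadjusted p under 0.05. DESeq2 and limma voom passed 0 of 605, with 29 and 23 unadjusted. Higher members numbered 9 of 16, against 52.9% of all. The 4 members with the smallest p on either side were miR-467e-5p (1.73 ± 0.870 in wild type, 2.54 ± 1.32 CPM in Vorinostat, log2 difference 0.41, SE 0.29), miR-466b/o-5p (0.62, SE 0.68), miR-669c-5p (-0.34, SE 0.33) and miR-467a/d-3p (-0.21, SE 0.47). The edgeR adjusted p was 0.9997 for each. Leaving out 1 library moved each by over 1.5 times. miR-467e-5p was at 0.18 without Vorinostat replicate 5 and miR-466b/o-5p at 0.31 without Vorinostat replicate 4. miR-669c-5p was at -0.12 without wild type vehicle replicate 1 and at -0.56 without Vorinostat replicate 5. miR-467a/d-3p was at -0.06 without Vorinostat replicate 8 and at -0.37 without Vorinostat replicate 5. The 3 comparisons share groups and so are not independent of each other.

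**Figure D3:**
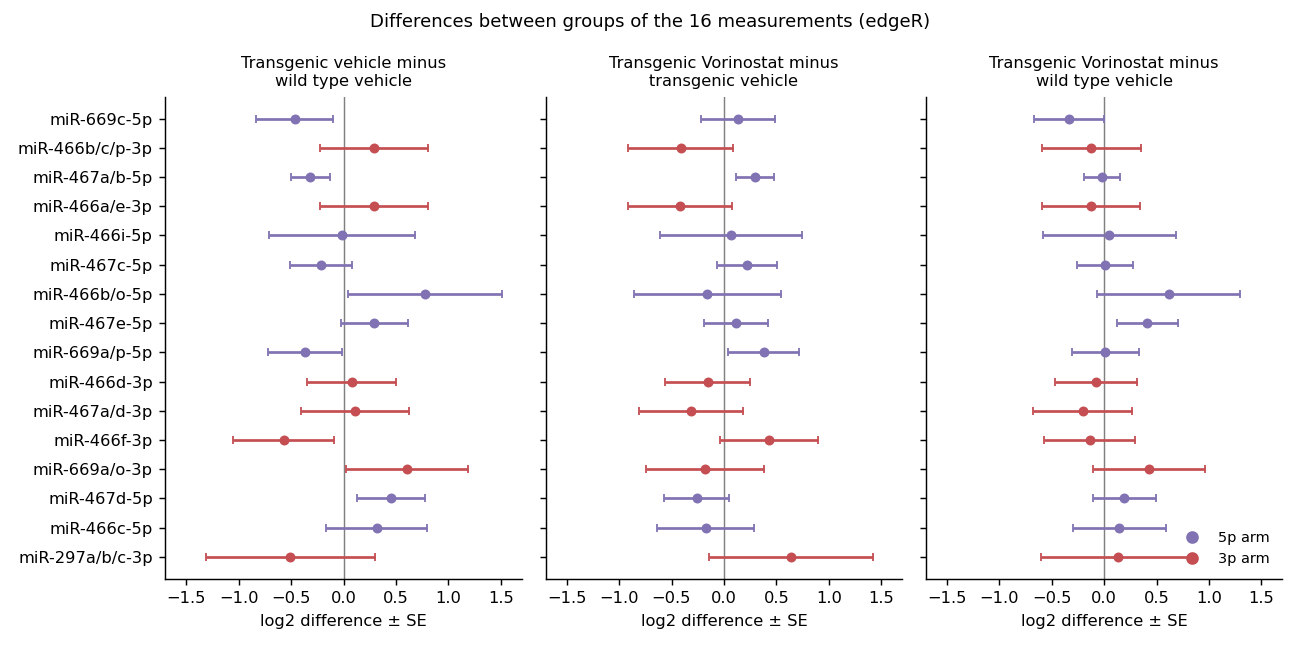
Log2 difference of each measurement in the 3 comparisons, with bars of 1 standard error from edgeR (violet for 5p arms, red for 3p arms). None passed the adjusted threshold, and standard errors ran from 0.17 for miR-467a/b-5p to 0.81 for miR-297a/b/c-3p.

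The summed level of the family differed between groups by less than the spread between libraries. Step-corrected, it was 122 ± 38.2 CPM in wild type vehicle, 119 ± 41.9 CPM in transgenic vehicle and 114 ± 40.0 CPM in Vorinostat. Libraries ran from 74.4 over a median of 108 to 189 CPM in wild type vehicle, from 82.6 over 104 to 205 in transgenic vehicle and from 76.6 over 103 to 207 in Vorinostat. The log2 mean of transgenic vehicle differed from that of wild type vehicle by -0.04 (pooled SD within groups 0.44), and that of Vorinostat from transgenic vehicle by -0.07 (pooled SD 0.45). On the deposited counts, which weight miR-467a/b-5p by its step, these differences were -0.14 (pooled SD 0.36) and 0.13 (pooled SD 0.34), so the direction of the Vorinostat difference turned with the division. Within lane L001 the deposited sums of the 4 Vorinostat libraries (375 to 446 CPM) lay above those of the 3 transgenic vehicle libraries (314 to 364 CPM). The step-corrected sums of the same libraries overlapped (103 to 152 and 87.1 to 129 CPM). No test was made on this sum, because the members were chosen with results of these data known. Both miR-466b/c/p-3p and the nearly identical miR-466a/e-3p enter it.

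The 2 libraries that stood apart had no read for many members of both arms, though many of these zeros stood against few expected counts. Wild type vehicle replicate 1 had 0 reads for 13 of 16 measurements, 7 of 7 3p arms and 6 of 9 5p arms. Vorinostat replicate 8 had 0 reads for 8 of 16, 5 of 7 3p arms and 3 of 9 5p arms. In the other 24 libraries at most 2 measurements were at 0, and 16 of these libraries had none at 0. The 3p measurements miR-466b/c/p-3p, the nearly identical miR-466a/e-3p, miR-467a/d-3p, miR-669a/o-3p and miR-466d-3p were at 0 in both libraries and were read in all 24 others. The same held for the 5p measurements miR-466c-5p and miR-467d-5p. miR-466i-5p was at 0 in both libraries and also in Vorinostat replicate 4.

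How many counts such a zero stands against depends on the step. At the median level of the other 24 libraries, Vorinostat replicate 8 would have had 51.9 counts of miR-466b/c/p-3p and 49.8 of the nearly identical miR-466a/e-3p, both without a step. It had 0 of each, and a count of 0 there allows up to 0.954 CPM (3 counts, counting error only). For miR-467a/d-3p and miR-669a/o-3p the same level gives only 4.28 and 2.94 counts after division by the step. A zero of these allows up to 10.5 and 11.4 CPM as deposited, which is near or above their usual level, so their zeros are imprecise. The 5p arm was not spared in this library. It had 0 of miR-466i-5p where 25.5 counts would be expected, and 6 of 9 5p measurements lay below the expected count. After division by the step it held 37 counts of miR-467a/b-5p (67.0 expected) and 2 of miR-669a/p-5p (7.41 expected). On the other side it held 20 counts of miR-466b/o-5p, where the median level gives 6.79, and 179 of miR-669c-5p, where it gives 71.7. In wild type vehicle replicate 1 the expected counts after division were 7.93 for miR-466b/c/p-3p and 7.61 for the nearly identical miR-466a/e-3p. For the other 3p measurements they were at most 0.654, so a zero of these says little. A count of 0 of a measurement without a step allows up to 6.24 CPM in this library, so its zeros are less precise. Among the 3p zeros of both libraries this pair had the highest expected counts, and the difference between the arms was not tested.

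No abundant miRNA outside the family was at 0 in Vorinostat replicate 8, while some were in wild type vehicle replicate 1. Of 328 tested entries with a step-corrected median of at least 10 CPM in the other 24 libraries, 5 had no read in Vorinostat replicate 8, and 26 had none in wild type vehicle replicate 1. The 5 were also among those 26, and all 5 were the entries behind miR-466b/c/p-3p and miR-466a/e-3p, which are close to a single observation. On the deposited scale the number was 9 of 337 and included miR-467a/d-3p and miR-669a/o-3p. With a minimum of 5 CPM, step-corrected, 6 of 382 entries were at 0 in both and all 6 were members, and with a minimum of 20 CPM 0 of 278 were. The level of 10 CPM was chosen after the values were seen.

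Other miRNAs of at least 10 CPM were near their usual level in Vorinostat replicate 8 at the median, but single miRNAs spread widely around it. The 160 other 3p miRNAs stood at a median of 102% of their median over the 24 libraries (quartiles 53.2% and 160%). The 148 other 5p miRNAs stood at 102% (quartiles 57.0% and 152%), and 0 of either were without reads. In wild type vehicle replicate 1 other 3p miRNAs stood at a median of 57.7% and other 5p miRNAs at 64.6%, with 13 and 8 without reads. The authors' deposited table of normalised log2 values, on a scale that the deposited header does not describe, also placed both libraries low for miR-466b/c/p-3p. It stood at 3.23 in wild type vehicle replicate 1 and 3.67 in Vorinostat replicate 8, against a lowest value of 5.93 in the other libraries. The group means of that table differed from those of the counts. Every measurement was higher in transgenic than in wild type vehicle, as miR-466b/c/p-3p (1.57, SD 0.32 and 1.36) and miR-467a/b-5p (0.35). All but miR-669a/p-5p (0.06) and miR-297a/b/c-3p (0.05) were lower with Vorinostat than with transgenic vehicle. The differences were -1.91 for miR-466b/c/p-3p and -0.38 for miR-467a/b-5p, whose directions in both comparisons were the reverse of the counts. These were not tested.

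Marker miRNAs moved with these libraries too. The summed level of miR-182-5p, miR-183-5p, miR-96-5p and miR-10b-5p, which are known from sensory and hindbrain or spinal tissue, was 1352 CPM in wild type vehicle replicate 1 and 605 CPM in Vorinostat replicate 8, the highest and next highest of 26. In the other 24 libraries it ran from 52.6 over a median of 117 to 348 CPM, and all 4 were read in both libraries. The erythrocyte miRNAs miR-451a, miR-144-3p and miR-486a-5p summed to 2033 and 1108 CPM, against 516 to 1228 CPM elsewhere, with 1 of the 3 at 0 in wild type vehicle replicate 1. The summed neuronal, endothelial, microglial and choroid plexus markers were each lowest of all libraries in wild type vehicle replicate 1. In Vorinostat replicate 8 these sums were within the range of the other 24. The endothelial sum was mostly miR-126a-3p, and miR-126a-5p alone was lowest of all libraries in Vorinostat replicate 8. Of the 3 microglial markers, 2 had no read in wild type vehicle replicate 1 and 1 had none in Vorinostat replicate 8. The summed oligodendrocyte markers were within the range of the other 24 in both libraries. In wild type vehicle replicate 1, however, miR-219a-2-3p was highest (1575 CPM) and miR-338-3p lowest (16.6 CPM) of all libraries. The part of these markers in the missing members was not tested.

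**Figure D4:**
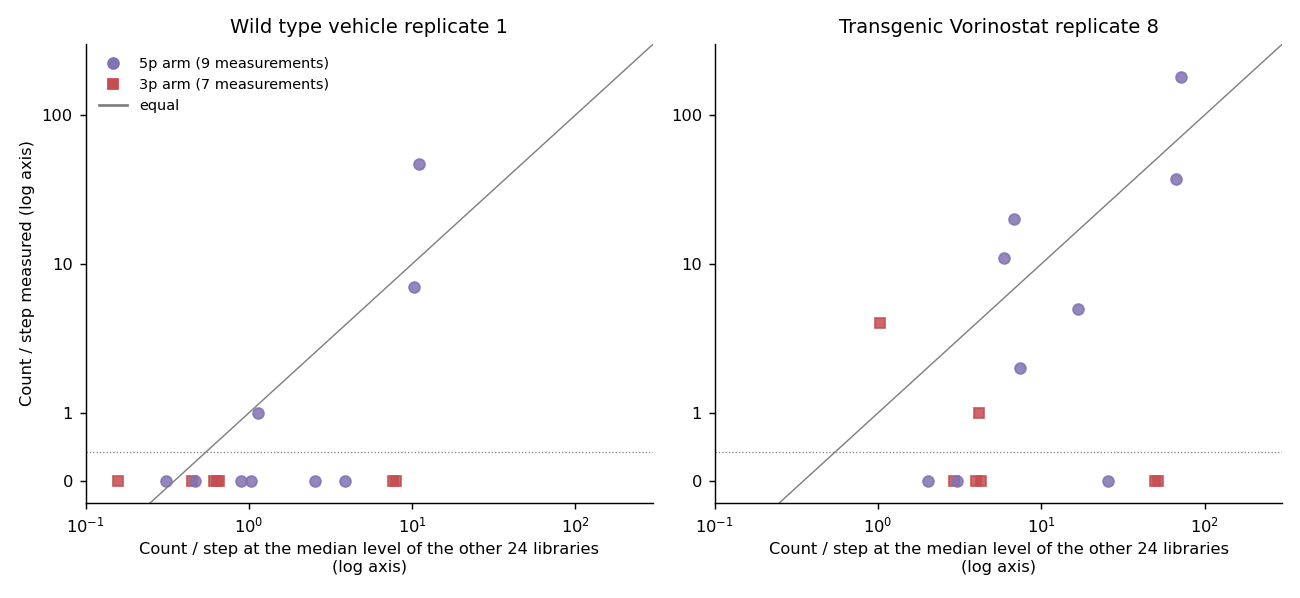
Counts divided by their step in wild type vehicle replicate 1 (left) and Vorinostat replicate 8 (right) against the value that the median level of the other 24 libraries gives at their depth, both on log axes with 0 placed at the bottom. Each point is 1 measurement (violet circles 5p arm, red squares 3p arm), and the 2 squares furthest to the right in Vorinostat replicate 8, miR-466b/c/p-3p and miR-466a/e-3p, stand at 0 where 51.9 and 49.8 would be expected.

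The share of 3p arms in the family also moved with the sequencing lane. Over the 24 other libraries and step-corrected it was 45.1 ± 10.9% in L001 (n = 12, 30.5% to 60.2%) and 34.0 ± 8.37% in L002 (n = 12, 23.3% to 54.7%), and the lanes overlapped. By group and over the same 24 libraries it was 39.0 ± 9.51% in wild type vehicle, 43.0 ± 10.2% in transgenic vehicle and 37.3 ± 13.3% in Vorinostat. Also without the 2 libraries, the group means in the same order were 42.4%, 45.4% and 48.2% within L001, and 33.1%, 41.3% and 28.6% within L002. All these shares count both miR-466b/c/p-3p and the nearly identical miR-466a/e-3p, on average 16.3% and 15.6% of the step-corrected sum over 26 libraries. With only 1 of the 2 counted, the share of 3p arms would be lower, and the lanes and groups were not compared in that way.

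Among single members, miR-467a/d-3p had the smallest adjusted p between lanes. It averaged 19.8 ± 9.41 CPM as deposited in L001 and 10.7 ± 6.85 CPM in L002 (n = 13 each). With group in the model, the log2 difference of L002 from L001 was -0.91 (SE 0.38, edgeR adjusted p = 0.230), and 0 of 605 miRNAs were lower in L002 at the adjusted threshold. Without the 2 libraries it was -0.86 (SE 0.27, edgeR adjusted p = 0.0364), one of 21 of 604 miRNAs lower in L002 (3.48%), while 62 (10.3%) were higher. With counts divided by their step, it was -0.85 (SE 0.28, edgeR adjusted p = 0.0393) without the 2 libraries. miR-467a/d-3p was the only member to pass in that fit. miR-467a/b-5p, which shares 10 of its 11 hairpins, differed by 0.17 (SE 0.13, edgeR adjusted p = 0.369). The 3p share of miR-467a was 9.31 ± 4.22% in L001 and 4.49 ± 1.61% in L002 without the 2 libraries. The lane is named in the headers only, and what differed between lanes was not tested.

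**Figure D5:**
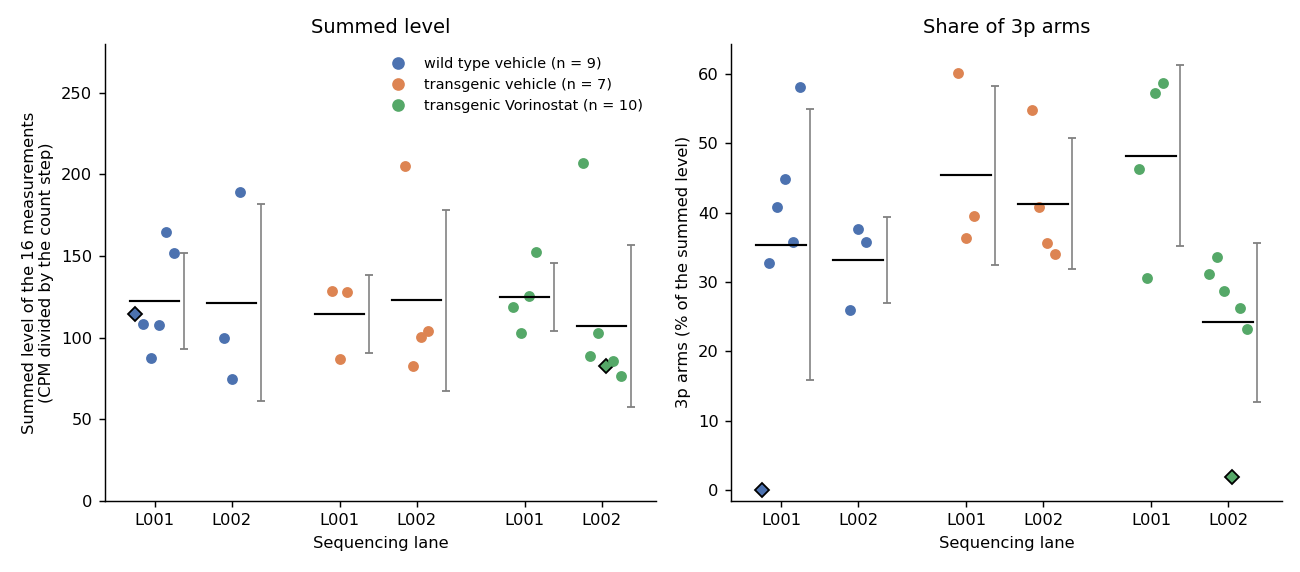
Summed step-corrected level of the 16 measurements in CPM (left) and the percentage of 3p arms in it (right) for each library, by group (colour) and sequencing lane. Both count miR-466b/c/p-3p and the nearly identical miR-466a/e-3p. Bars are means and grey whiskers SD over all libraries of a group and lane, and outlined diamonds are the libraries wild type vehicle 1 and Vorinostat 8, whose 3p shares were 0% and 1.93%.

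The members rose and fell together across libraries only in part. Over all 120 pairs of measurements, Pearson's r of log2 CPM had a median of 0.50 over the 26 libraries and 0.27 over the 24 without the 2 that stood apart. Over all pairs of the 605 tested miRNAs the medians were 0.10 and 0.00. Within lanes and without these 2, the median was 0.06 in L001 and 0.44 in L002 (n = 12 libraries each). These values are descriptions over libraries that share depth and lane, and the pairs share measurements. Among the abundant members, miR-467a/b-5p and miR-467c-5p had r = 0.65 over the 24 libraries (0.49 in L001, 0.72 in L002). miR-467a/b-5p and miR-467a/d-3p, which share 10 of 11 hairpins, had r = 0.05 (-0.66 in L001, 0.69 in L002). miR-669c-5p had negative r with the abundant 3p arms over all 26 libraries, for example -0.55 with miR-467a/d-3p, and 0.04 over the 24.

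The spread of the members was wider than that of most miRNAs. The SD of log2 CPM over 26 libraries had a median of 1.61 for the members and 0.75 for all 605 tested miRNAs, and 14 of 16 members lay above the latter. Without the 2 libraries the medians were 0.74 and 0.52, and 13 of 16 lay above. Most members had low counts, and the part of counting noise in these spreads was not tested. In the authors' deposited table of module memberships, 15 of 16 measurements had their highest membership in the turquoise module and miR-669c-5p in the green one, while 338 of all 674 listed miRNAs (50.1%) were highest in turquoise.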

How the data were processed

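Small RNA was sequenced from 26 CA1 libraries as 50-base single-end reads, per the labels' protocols. Quality control with FastQC 0.11.5 and genome build mm10 are given per the submitters' processing notes. The aligner, the miRNA annotation and the treatment of reads that match several hairpins are not given in any source used here. The authors deposited raw read counts per mature miRNA, a table of normalised log2 values whose method is not stated, and membership scores for 5 co-expression modules.

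Members, lists and tests were chosen with earlier results of these data known. Named members were the 10 most abundant, the 2 higher and 2 lower with the smallest p in each comparison, and those with the largest and smallest spread. The raw counts of all 3 groups entered 1 fit in edgeR 4.0.16 (R 4.3.3) with TMM scaling, filterByExpr at its defaults (605 miRNAs kept), quasi-likelihood tests (two-sided) and Benjamini-Hochberg adjustment over all 605 at a threshold of 0.05. A log2 CPM used a prior count of 0.5. DESeq2 1.42.0, limma voom 3.58.1, other scalings and filters, lane terms and libraries left out were alternatives. The fit was tested on simulated data. The count step of an entry is the largest whole number that divides all its deposited counts, read for entries with reads in at least 10 libraries. It was noticed after the main results, and counts divided by it were an added alternative. Between the transgenic groups, samples with the same replicate number deviated together in 7 of 7 pairs (r from 0.28 to 0.57). Only the pair of number 5 (r = 0.57) lay in different lanes, and the part of the lane in these r was not tested. The labels do not state a pairing, so the main fit was unpaired and the numbers entered as a block only in alternatives. With wild type vehicle, samples of the same number deviated together in 4 of 6 and 5 of 9 pairs, and those numbers were not taken to pair samples. Hairpin positions came from GENCODE M21 and sequences from RefSeq GRCm38.p6. PCR reads without molecular identifiers are not independent molecules, so limits set by 3 counts cover counting error only.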

Additional observations from a re-analysis of the deposited data

Results flagged for a closer look

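Among 60 sets of values examined (each measurement, the summed level and the share of 3p arms, the last 2 as deposited and step-corrected, in each group), 8 had a library far from the others of its group by Dixon's ratio. Chance alone gives about 1 in 20 only for normal and independent values. These sets overlap and the levels were taken as CPM without a log, so the 8 cannot be set against that rate. In wild type vehicle, replicate 9 had 420 CPM of miR-467a/b-5p against a group median of 234 CPM. Replicate 5 of the same group had 72.9 CPM of miR-669a/p-5p (median 33.5 CPM) and 6.80 CPM of miR-297a/b/c-3p (median 1.29 CPM). Replicate 1 of that group, the shallowest library, had 97.8 CPM of miR-669c-5p from 47 counts (median 27.7 CPM). In the Vorinostat group, replicate 5 had 27 CPM of miR-466i-5p (median 7.70 CPM) and 5.63 CPM of miR-467e-5p (median 1.87 CPM). In transgenic vehicle, replicate 6 had a summed level of 488 CPM against a median of 347 CPM as deposited, and of 205 against 104 CPM step-corrected, which is the same library and not a separate observation. All 8 are high values. No explanation for them was tested.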

How the results depend on the processing

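No member passed an adjusted p of 0.05 in any of the 3 comparisons under any of the 41 alternative settings, and the smallest adjusted p of a member was 0.240. At most 1 member had an unadjusted p under 0.05 in a setting. Over all miRNAs the count past the threshold was 0 in each comparison and stayed 0 when each library was left out in turn (lowest 0, highest 0), with DESeq2 and with limma voom. The exception was Vorinostat against vehicle with the replicate block over the 7 numbers shared by the transgenic groups, where 5 of 567 miRNAs passed, none of them a member. The replicate block changed no other call.

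Of 168 log2 differences of the named members under settings other than leaving out 1 library, 164 kept their direction. The 4 that turned were Vorinostat against vehicle for miR-466b/c/p-3p (0.24) and miR-466a/e-3p (0.22) within lane L001, and transgenic Vorinostat against wild type vehicle for miR-669c-5p within lane L002 (0.10) and for miR-467a/d-3p with lane as a covariate (0.030). The cause was not tested. All 312 with 1 library left out kept their direction. The Vorinostat difference of the summed level was 0.13 on the deposited counts, -0.01 with library totals only, 0.27 within lane L001 (pooled SD there 0.11) and -0.07 on counts divided by their step, an alternative added after the data were seen. Scaling by library totals only moved the median log2 difference of all miRNAs in the Vorinostat comparison from -0.01 to -0.14, and that of the members from -0.05 to -0.14.

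The lane difference of miR-467a/d-3p, examined after the data were seen, passed only with the 2 libraries low in 3p arms, wild type vehicle 1 and Vorinostat 8, removed (-0.86, edgeR adjusted p = 0.0364, and 1 member past the threshold in place of 0). The count of miRNAs at 0 in both of these libraries was 9 at a minimum of 10 CPM, 10 at 5 CPM and 0 at 20 CPM. With counts divided by their step it was 6 at 5 CPM, 5 at 10 CPM and 0 at 20 CPM, and the lane difference without both libraries was -0.85. Depth and the count step limit the lower members of the family, where 1 count can be worth up to 2.08 CPM.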

Other observations

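miR-574-5p, a UG-rich miRNA of another gene, was read in all 26 libraries. It averaged 5.81 ± 2.96 CPM in wild type vehicle, 5.52 ± 2.34 CPM in transgenic vehicle and 4.48 ± 1.88 CPM in Vorinostat. The summed oligodendrocyte markers miR-219a-2-3p and miR-338-3p averaged 1030 ± 281, 1147 ± 269 and 1085 ± 184 CPM in the same order. Of the microglial and leukocyte markers, miR-223-3p had reads in 22 libraries and averaged 0.397 CPM, miR-142a-3p had reads in 25 and averaged 3.54 CPM, and miR-146a-5p was read in all 26 and averaged 329 CPM.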
